A study of Mus musculus with 56 samples.

Results

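Front paws of 13 mice with collagen-induced arthritis (CIA) that had received an antibody against TNF were compared with front paws of 4 mice without CIA. These are 17 of the 56 libraries of the series, and they were taken by their treatment labels alone, "anti TNFa mAb" and "no CIA". CIA is a mouse model in which immunisation with type II collagen, the main collagen of cartilage, leads to autoimmune inflammation of the joints. All animals were male mice of the DBA/1 strain. The anti-TNF mice were immunised with chicken type II collagen on days 1 and 21 and received clone XT3.11 at 30 mg/kg by intraperitoneal injection, 2 times a week for 5 weeks from day 21. RNA was taken from whole paw homogenate on day 91, after the injections had ended, so the mice had been dosed earlier and were not under dosing when sampled. The no CIA mice also carry the treatment entry "none". The 2 groups therefore differ in immunisation, in antibody and in disease at the same time, and these cannot be told apart in a direct comparison. Another group, 13 immunised mice given an isotype control antibody at 30 mg/kg, is used below to set the values of the anti-TNF mice beside those of immunised mice without TNF blockade. The fit also holds 13 immunised mice given an antibody against IL-6 (clone MP5-20F3, 10 mg/kg) and 13 given a combination of the anti-TNF antibody at 30 mg/kg with the anti-IL-6 antibody at 10 mg/kg, on the same schedule. Arthritis scores of single mice were not analysed here.

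Several systems with well-known wiring appear in the results. Type I interferons signal through transcription factors that include Stat2 and Irf9 and bind a sequence called the interferon-stimulated response element in front of antiviral genes. Interferon-gamma acts in part through Irf1 and induces guanylate-binding proteins, immunity-related GTPases and the machinery that loads peptides on major histocompatibility complex (MHC) class I molecules. The circadian clock is a feedback loop in which Arntl, paired with Clock or Npas2, activates genes with an E-box, and the Per and Cry proteins made from such genes switch Arntl off again. Dbp, Tef and Hlf are outputs of this loop and activate genes with a D-box. TNF is bound by Tnfrsf1a and Tnfrsf1b and acts on immune cells, fibroblasts and bone cells largely through NF-kB.

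Each gene has 1 FPKM value per mouse, its fragment count scaled by transcript length and by the mapped fragments of the library. Estimated depth, in M fragments (M for mega), was 41.65 to 54.8 per library, with means of 47.64 ± 3.72 (SD, n = 13) under anti-TNF and 46.0 ± 2.52 (n = 4) without CIA. Differences are anti-TNF minus no CIA on the log2(FPKM + 1) scale with standard errors (SE), on which changes of weakly expressed genes come out too small. A gene is said to have risen or fallen, or to be called, where the Benjamini-Hochberg adjusted p of limma, a linear model fitted across all genes, was under 0.05. Markers of the sampled tissues were present in both groups, with mean FPKM of 3283 and 5198 for the muscle actin Acta1, 2411 and 3144 for the basal keratin Krt14 and 1157 and 227.5 for the bone and fibroblast collagen Col1a1 in anti-TNF and no CIA paws. In whole paws, fewer cells of a type and less RNA per cell cannot be told apart. Anti-TNF replicates 7 and 13 stood apart from the other anti-TNF mice in genes of inflammation and bone, and they had the 2 highest levels of the skeletal muscle list (10.5 and 10.1 on the log2(FPKM + 1) scale, others 6.37 to 9.87) and of oxidative phosphorylation. Anti-TNF replicate 6 carries mouse number 2, whereas the other 12 anti-TNF mice carry numbers between 15 and 27. Number 20, missing from that block, is labelled anti-IL-6, so the group of these 2 mice is in some doubt, and counts without replicate 6 are given below. All 4 no CIA libraries and anti-TNF replicates 6 and 8 have library index numbers between 39 and 54, and the other 11 anti-TNF libraries have numbers from 57 to 96. The labels name no batch.

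Of 14543 features tested, 83 were called (0.571%), of which 71 rose in the anti-TNF paws (0.488%) and 12 fell (0.0825%). At an unadjusted p under 0.05 there were 2796 (19.2%), with 2188 higher (15.0%) and 608 lower (4.18%), and 8230 features had a difference above 0 (56.6%). Genes of the interferon response and of the MHC made up much of the higher group. Of the 71, 19 were in one of 2 interferon lists (23 and 13 tested members). In one of 2 MHC lists, class I and class II (12 and 9 tested members), were 9. Symbols of the mouse MHC, H2, were carried by 12, some of them also among those 9. Genes of the clock list made up 6 of the 12 that fell, and Cipc, which inhibits Clock and is not in that list, also fell. Across all features every anti-TNF library lay above every no CIA library for 103 (0.708%) and below for 16 (0.110%). Of the called genes, 53 had all 13 anti-TNF libraries outside the no CIA range. The calls rest on the same values, so a lack of overlap stated below for a called gene is no separate support for its call. The counts rested on single no CIA mice: without no CIA replicate 4 the fit called 4 genes higher and 3 lower, without replicate 2 it called 17 and 3, and without replicate 1 it called 22 and 4. Oas1a, Rtp4, Npas2, Per3 and Tef were called in each of the 17 fits that left out 1 library. A fit of the 17 compared libraries alone called 49 genes higher and 12 lower. Of the 83 it kept 51, with 42 of the 71 higher and 9 of the 12 lower. With a pseudocount of 10, which shrinks the differences of weakly expressed genes, Rtp4 (limma adjusted p = 0.0586) and Oas1a (0.0827) were not called, nor were Isg15 and Oasl2 (0.147 each).

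**Figure D1:**
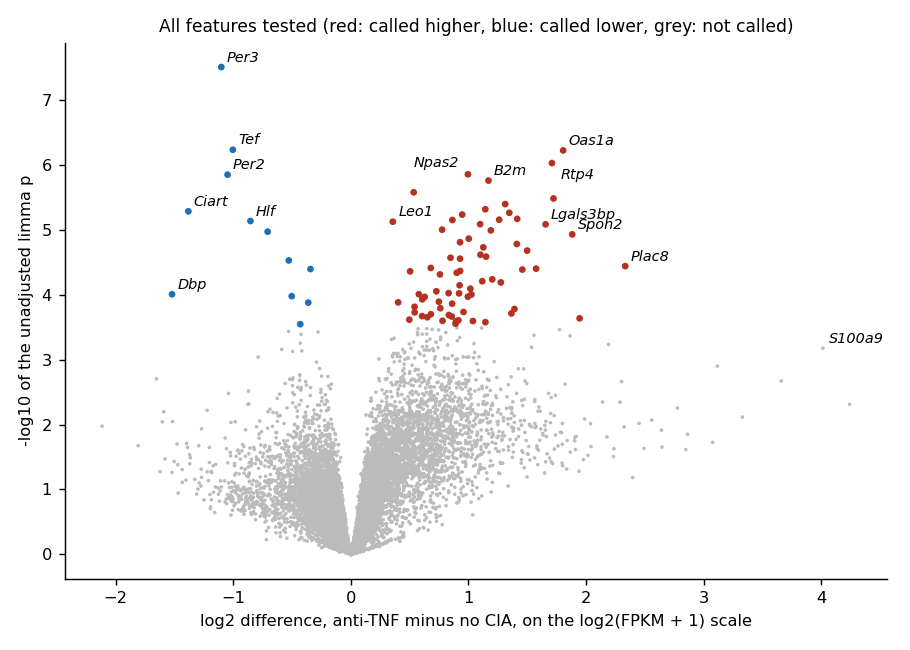
Log2 difference between anti-TNF and no CIA paws (x axis, log2(FPKM + 1) scale) against the negative log10 of the unadjusted limma p (y axis), 1 point per feature. The 71 genes called higher are red, the 12 called lower are blue, and the others are grey. S100a9 is far to the right but was not called.

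The type I interferon list had the most called genes. Of 25 listed genes 23 were tested, 13 rose and none fell, and the median difference over the tested members was 0.91 against 0.03 over all features. The summed level of the list, taken as the mean log2(FPKM + 1) of its members, was 1.68 to 1.97 in the 4 no CIA libraries and 2.39 to 3.39 in the anti-TNF libraries, with no overlap. Calls in the list numbered 7 without no CIA replicate 1 or replicate 2 and 2 without replicate 4, at medians of 0.86, 0.98 and 0.83. Rtp4, a chaperone of receptor transport induced by interferon, was at 1.76, 2.62, 3.00 and 1.79 FPKM in the no CIA mice and at 5.69, 9.29 and 16.9 (lowest, median, highest) in the anti-TNF mice. Every anti-TNF mouse was thus above the highest no CIA mouse, and the difference was 1.71 ± 0.308 (limma adjusted p = 0.00342). Oas1a, which makes the 2-5A messenger after binding double-stranded RNA, was at 0.468, 0.544, 0.614 and 0.580 FPKM without CIA. Under anti-TNF it was at 2.09, 4.06 and 8.79, an 8.73-fold higher mean (log2 1.80 ± 0.318, adjusted p = 0.00292). Its close paralogs in the Oas1 cluster can share reads with it, so the split between them is uncertain. On GRCm38 (GENCODE M21) Rtp4 spans chr16:23520291-23614222 and Oas1a chr5:120896256-120907521.

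Oasl2, a relative of the Oas enzymes, was at 0.980, 1.52, 1.82 and 0.955 FPKM without CIA and at 3.77, 5.87 and 13.6 under anti-TNF (log2 1.72 ± 0.332, adjusted p = 0.00534). Isg15, the ubiquitin-like protein attached to other proteins during the response, was at 3.24, 2.40, 3.40 and 2.27 against 5.26, 9.14 and 18.2 (log2 1.5 ± 0.321, adjusted p = 0.0102). For both genes the groups did not overlap. Lgals3bp, a secreted galectin-binding glycoprotein, spanned 7.93 to 11.8 FPKM without CIA and 15.8 to 53.8 under anti-TNF (log2 1.66 ± 0.335, adjusted p = 0.00573). Zbp1, a sensor of Z-form nucleic acid, spanned 0.788 to 1.23 and 2.31 to 11.6 (log2 1.57, adjusted p = 0.0149). Bst2, the membrane protein tetherin that holds back budding viruses, spanned 8.72 to 11.5 and 15.2 to 50.6 (log2 1.41, adjusted p = 0.00573). These genes did not overlap between groups either. Isg15 spans chr4:156199424-156200818, Oasl2 chr5:114896936-114912234 and Bst2 chr8:71534255-71537456. Usp18, which removes Isg15 from proteins, rose by 0.86 (adjusted p = 0.00573). With no CIA replicate 4 left out, limma's adjusted p was 0.0707 for Oasl2 and Bst2, 0.0778 for Lgals3bp, 0.0973 for Usp18, 0.101 for Isg15 and 0.119 for Zbp1.

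The transcription factors Stat2 and Irf9 had smaller differences than these effectors. Stat2 was at 4.88 to 5.89 FPKM without CIA and 6.58 to 14.8 under anti-TNF, a rise of 0.73 ± 0.171 (limma adjusted p = 0.0258). Irf9, which acts with Stat2 on the response element, was at 9.30 to 11.1 and 11.4 to 24.2, a rise of 0.78 ± 0.159 (adjusted p = 0.00647). In both genes the 13 anti-TNF mice were above the 4 no CIA mice. Irf7, which amplifies interferon production, had a difference of 0.71 ± 0.207 that did not pass the test (adjusted p = 0.103). Stat2 had an adjusted p of 0.205 and Irf9 one of 0.0870 in limma without no CIA replicate 4.

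The second interferon list held GTPases and chemokines that respond mostly to interferon-gamma. Of 15 genes 13 were tested and 6 rose, all of them GTPases, with a list median of 0.86. Gbp3, a guanylate-binding protein that attacks vacuoles of intracellular microbes, was at 2.29, 2.48, 3.20 and 1.98 FPKM without CIA and at 4.33, 5.98 and 9.78 under anti-TNF (log2 1.10 ± 0.222, limma adjusted p = 0.00573). Iigp1, an immunity-related GTPase, was at 0.960, 1.15, 1.66 and 1.17 against 2.58, 4.89 and 13.3 (log2 1.46 ± 0.326, adjusted p = 0.0149). Irgm2, a regulator of such GTPases, was at 1.51, 1.37, 2.26 and 1.43 against 2.42, 3.99 and 8.55 (log2 1.02 ± 0.238, adjusted p = 0.0240). None of the 3 genes overlapped between groups. The annotated spans of Irgm2 (chr11:58199618-58222782) and of the GTPase gene Igtp (chr11:58199556-58207591) overlap, so reads of one could have been counted for the other. The chemokines Cxcl9 and Cxcl10, which draw T cells, and the transcription factor Irf1 were not called. Their differences were 0.64 ± 0.217 (adjusted p = 0.147), 0.68 ± 0.320 (adjusted p = 0.238) and 0.83 ± 0.253 (adjusted p = 0.124). Without no CIA replicate 4 the adjusted p in limma was 0.0880 for Gbp3 and 0.175 for Irgm2, and without replicate 1 it was 0.127 for Iigp1.

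A search of promoter sequence was made because many of these genes are textbook targets of one control element. RefSeq promoters, 250 bases before to 50 bases after the start of transcription on GRCm38.p6, were found for 55 of the 71 genes that rose and 10 of the 12 that fell. The core of the interferon-stimulated response element, GAAA and again GAAA with any 2 bases between, searched on both strands, was present in 23 of the 55 (41.8%), in 0 of the 10 that fell, in 3.67% of tested genes with a promoter and in 3.44% of all 32851 promoters. A match is a description of the letters in this window and not a measured binding site, and DBA/1 can differ from the reference strain. Upstream stretches of 6 genes are shown with the core in capitals, 5′ to 3′ on the gene's strand. In Gbp3 and Apol9a the match is on the opposite strand and reads TTTC, 2 bases and TTTC, and in Oas1a, Bst2, Gbp3, Apol9a and Isg15 overlapping copies of the core run into each other. The stretches lie at chr5:120907526-120907590 for Oas1a, chr4:156200830-156200941 for Isg15, chr8:71537542-71537647 for Bst2 and chr15:77411079-77411184 for Apol9a on the minus strand. They lie at chr3:142559954-142560043 for Gbp3 and chr2:122147503-122147602 for B2m on the plus strand. Apol9a, an apolipoprotein L family gene, rose by 1.19 (limma adjusted p = 0.00647, and 0.0880 without no CIA replicate 4), and B2m is the class I light chain.
Oas1a: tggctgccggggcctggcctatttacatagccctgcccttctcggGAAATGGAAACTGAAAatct
Isg15: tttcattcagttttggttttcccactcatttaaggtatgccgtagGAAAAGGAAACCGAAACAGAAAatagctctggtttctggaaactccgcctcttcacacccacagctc
Bst2: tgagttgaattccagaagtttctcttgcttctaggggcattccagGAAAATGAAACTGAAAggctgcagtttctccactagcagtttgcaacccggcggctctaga
Gbp3: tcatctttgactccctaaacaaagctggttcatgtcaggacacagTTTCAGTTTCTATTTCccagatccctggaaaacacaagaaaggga
Apol9a: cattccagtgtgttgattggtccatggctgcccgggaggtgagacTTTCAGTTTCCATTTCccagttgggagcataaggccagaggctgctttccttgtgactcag
B2m: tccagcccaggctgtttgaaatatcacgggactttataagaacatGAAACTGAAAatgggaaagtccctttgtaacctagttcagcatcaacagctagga

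Most listed genes of peptide presentation on MHC class I rose at the mRNA level. All 12 listed genes were tested and 8 rose, with a list median of 0.96 and no negative difference. B2m, the light chain shared by all class I molecules, was at 241, 255, 304 and 229 FPKM without CIA and at 324, 602 and 878 under anti-TNF. The lowest anti-TNF mouse was above the highest no CIA mouse, and the mean rose from 257 ± 32.9 (SD, n = 4) to 599 ± 166 (n = 13; log2 1.17 ± 0.218, limma adjusted p = 0.00364). B2m spans chr2:122147686-122153083 and the heavy chain gene H2-Q4 chr17:35379617-35385290. H2-Q4 was at 26.7, 27.7, 32.3 and 22.1 FPKM against 31.9, 66 and 86.5 (log2 1.14 ± 0.225, adjusted p = 0.00573), with 12 of 13 anti-TNF mice above the no CIA range. H2-D1 spanned 311 to 359 without CIA and 340 to 901 under anti-TNF (log2 0.93, adjusted p = 0.0120). H2-K1 spanned 96.9 to 119 and 116 to 313 (log2 0.99, adjusted p = 0.0272), so both overlapped at their edges. Heavy chains are near copies of each other and are variable between strains, so reads can move between them and the value of any single H2 gene is uncertain. Without no CIA replicate 4 none of the 12 listed genes was called, at a median of 0.90, and 2 and 4 were called without replicates 2 and 1. The adjusted p in limma without replicate 4 was 0.0571 for B2m, 0.0811 for H2-Q4, 0.101 for H2-D1 and 0.217 for H2-K1. With muscle and epidermis levels in the fit the list median was 0.62 with 3 called.

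Nlrc5, the transactivator of class I genes, was at 5.06, 4.60, 4.88 and 3.52 FPKM without CIA and at 5.56, 10.1 and 16.9 under anti-TNF, with no overlap (log2 1.00 ± 0.209, limma adjusted p = 0.00768). The immunoproteasome subunits Psmb8 and Psmb9, which shape the peptides, rose by 1.10 ± 0.238 (adjusted p = 0.0114) and 1.13 ± 0.239 (adjusted p = 0.00936). Psmb10, the remaining inducible subunit, had 0.64 ± 0.171 and was not called (adjusted p = 0.0606). The peptide transporters Tap1 and Tap2 had 0.65 ± 0.179 (adjusted p = 0.0816) and 0.61 ± 0.168 (adjusted p = 0.0780), and the loading factor Tapbp had 0.40 ± 0.149 (adjusted p = 0.166). The 4 members that were not called are thus the transporter pair, the loading factor and 1 proteasome subunit. Nlrc5, Psmb8 and Psmb9 had an adjusted p of 0.115, 0.117 and 0.184 in limma without no CIA replicate 4.

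MHC class II, which presents peptides on dendritic cells, macrophages and B cells, had 1 called gene of 9, beside a list median of 0.92. That gene was H2-DMb1, a chain of the DM molecule that exchanges class II peptides, at 4.69, 3.86, 4.77 and 3.70 FPKM against 4.67, 9.92 and 23.4 (log2 1.04 ± 0.265, limma adjusted p = 0.0468). The lowest anti-TNF mouse lay within the no CIA range. Cd74, the invariant chain, had a difference of 0.92 ± 0.286 (adjusted p = 0.125), H2-Aa had 0.98 ± 0.310 (adjusted p = 0.129) and the class II transactivator Ciita had 0.78 ± 0.291 (adjusted p = 0.166). Of 15 complement genes, all tested, 2 rose and the median was 0.80. C2, the protease of the classical C3 convertase, was at 8.71, 8.47, 10.4 and 6.91 FPKM against 8.85, 18.9 and 24.5 (log2 0.92 ± 0.218, adjusted p = 0.0263). C4b, its partner, was at 43.0, 52.3, 58.9 and 41.0 against 44.2, 81.2 and 123 (log2 0.68 ± 0.151, adjusted p = 0.0149). In both, 11 of 13 anti-TNF mice were above the no CIA range, and C4b has a near-identical neighbour that can share its reads. C3 itself had 1.13 ± 0.373 and was not called (adjusted p = 0.142). With no CIA replicate 4 left out, the adjusted p in limma was 0.241 for H2-DMb1, 0.229 for C2 and 0.191 for C4b.

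Of the genes that rose, 39 are in none of the lists. They include Irf9 and Apol9a, described above, and other interferon and class I genes such as Ifih1, Oas1g and H2-T22. Plac8, a small cysteine-rich protein of myeloid and epithelial cells, had the highest log2 difference of the 83 called genes. It was at 1.97, 1.89, 2.40 and 1.98 FPKM without CIA and at 3.05, 12.7 and 42.3 under anti-TNF, without overlap (log2 2.33 ± 0.517, limma adjusted p = 0.0147). Spon2, a secreted matrix protein of the spondin family, was at 7.33, 5.30, 10.0 and 7.92 against 12.9, 33.9 and 68.6, also without overlap (log2 1.88 ± 0.389, adjusted p = 0.00686). Plac8 spans chr5:100553725-100572245 and Spon2 chr5:33198184-33218455. The adjusted p in limma was 0.0973 for Plac8 without no CIA replicate 4 and 0.0842 for Spon2 without replicate 2.

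Among the clock genes called, repressors and output factors fell and activators rose. All 20 listed clock genes were tested, 6 fell and 2 rose, and the list median was -0.51. The 6 that fell were Per2, Per3 and Ciart, which repress the activators, and the output factors Dbp, Tef and Hlf. The 2 that rose were the activators Arntl and Npas2. In all 8 genes the 13 anti-TNF mice were on one side of the 4 no CIA mice. Over all features 0.708% were separated in this way upward and 0.110% downward. The 8 were picked by calls on the same values, so their separation is no separate support. The mean level of the list was 3.83 to 4.13 on the log2(FPKM + 1) scale without CIA and 3.39 to 3.72 under anti-TNF. Without no CIA replicate 4 the list had 1 gene called higher and 2 lower, without replicate 2 it had 1 and 3, and without replicate 1 it had 1 and 4, at medians of -0.50, -0.48 and -0.53. The hour at which paws were taken is not given in the sources used here.

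Per3 had the smallest p of all features tested. It was at 11.8, 13.6, 7.08 and 10.0 FPKM without CIA and at 3.33, 4.30 and 5.92 under anti-TNF (log2 -1.10 ± 0.170, limma adjusted p = 0.000455). Per2 was at 3.23, 4.56, 2.33 and 5.69 against 0.759, 1.25 and 2.32, so that its highest anti-TNF mouse was just under the lowest no CIA mouse (log2 -1.05 ± 0.193, adjusted p = 0.00345). Ciart was at 23.8, 23.5, 9.88 and 17.1 against 3.62, 5.95 and 8.63 (log2 -1.38 ± 0.273, adjusted p = 0.00573). No CIA replicate 3 was the lowest of its group for each of these 3 genes. Per3 spans chr4:151003652-151044665, Per2 chr1:91415982-91459324 and Ciart chr3:95878503-95882251. Per1, which also answers to glucocorticoids, had a difference of -0.63 ± 0.208 that was not called (adjusted p = 0.146). Cry2, the partner of the Per proteins, was lower in every anti-TNF mouse (9.53 to 17.6 against 18.1 to 21.1) and just missed the threshold (log2 -0.53 ± 0.139, adjusted p = 0.0582). Per2 had an adjusted p of 0.0811 in limma without no CIA replicate 4 and Ciart one of 0.0783 without replicate 1.

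Dbp had the largest fall of the 12. It was at 112, 145, 64.9 and 88 FPKM without CIA and at 18.3, 35.4 and 63.3 under anti-TNF (log2 -1.52 ± 0.361, limma adjusted p = 0.0263). Tef was at 66.5, 77.2, 53.2 and 63.9 against 23.6, 31.1 and 44.0 (log2 -1.0 ± 0.177, adjusted p = 0.00292). Hlf was at 6.58, 8.01, 4.43 and 7.88 against 2.40, 3.10 and 4.00 (log2 -0.85 ± 0.172, adjusted p = 0.00573). The 3 output factors fell together, each with its lowest no CIA value in replicate 3. Dbp spans chr7:45705088-45710203, Tef chr15:81802421-81826863 and Hlf chr11:90336536-90390895, and the activators described next span chr1:39193731-39363236 (Npas2) and chr7:113207465-113314126 (Arntl). Npas2 was at 1.27, 0.946, 1.6 and 1.05 FPKM without CIA and at 1.84, 3.55 and 4.65 under anti-TNF (log2 1.0 ± 0.183, adjusted p = 0.00345). Arntl was at 7.48, 6.05, 9.55 and 7.23 against 10.2, 11.4 and 16.1 (log2 0.65 ± 0.164, adjusted p = 0.0438). Their binding partner Clock had a difference of 0.06 ± 0.132 (adjusted p = 0.809). Nfil3, a repressor of D-box genes, had 0.50 ± 0.206 (adjusted p = 0.191), and the repressors Nr1d1 and Nr1d2 had -0.45 ± 0.246 (adjusted p = 0.295) and -0.48 ± 0.157 (adjusted p = 0.140). The adjusted p in limma was 0.229 for Dbp and 0.282 for Arntl without no CIA replicate 2, and 0.0916 for Hlf without replicate 4. It was 0.150 for Dbp and 0.164 for Arntl with the run of index numbers in the fit, described at the end.

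The other 6 genes that fell are in none of the lists. Cipc, which binds Clock and inhibits it, was at 15.6, 17.2, 13.8 and 15.8 FPKM against 10.5, 12.3 and 14.0 (log2 -0.34 ± 0.0768, limma adjusted p = 0.0149). Hdac11, a histone deacetylase, was at 9.59, 10.1, 6.74 and 7.19 against 4.74, 5.49 and 7.26 (log2 -0.50 ± 0.120, adjusted p = 0.0272). Slc6a6, the taurine transporter, was at 58.6, 57.1, 38.0 and 52.6 against 29.1, 38.3 and 45.5 (log2 -0.43 ± 0.111, adjusted p = 0.0499). Only 6 of 13 anti-TNF mice were below the no CIA range for Slc6a6, against 12 of 13 for Cipc and for Hdac11. Without no CIA replicate 2 the adjusted p in limma was 0.179 for Cipc, 0.256 for Hdac11 and 0.283 for Slc6a6.

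Promoters of the genes that fell were searched for clock elements. The E-box CACGTG was present in 3 of 10 (30.0%), in 0 of the 55 that rose, in 11.4% of tested genes with a promoter and in 7.15% of all promoters. The D-box TTATGTAA, searched on both strands, was present in 1 of 10, in 1 of the 55 and in 0.695% of tested genes. Stretches of 4 genes are shown with the element in capitals, since they carry the 2 elements. They lie at chr3:95882229-95882389 (Ciart) and chr4:151044771-151044915 (Per3) on the minus strand and at chr12:86947281-86947342 (Cipc) and chr15:81802501-81802596 (Tef) on the plus strand. Ciart holds 3 copies of the E-box and Per3 holds 2 of the D-box.
Ciart: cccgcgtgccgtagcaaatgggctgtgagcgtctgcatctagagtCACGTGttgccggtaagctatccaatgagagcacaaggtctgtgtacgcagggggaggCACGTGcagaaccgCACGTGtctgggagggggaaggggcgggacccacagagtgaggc
Cipc: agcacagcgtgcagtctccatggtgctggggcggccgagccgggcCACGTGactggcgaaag
Tef: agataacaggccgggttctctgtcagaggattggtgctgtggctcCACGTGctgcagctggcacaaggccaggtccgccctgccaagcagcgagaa
Per3: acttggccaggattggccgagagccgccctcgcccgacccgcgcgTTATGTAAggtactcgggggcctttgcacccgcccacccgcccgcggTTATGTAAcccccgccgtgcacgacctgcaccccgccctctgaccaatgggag

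**Figure D2:**
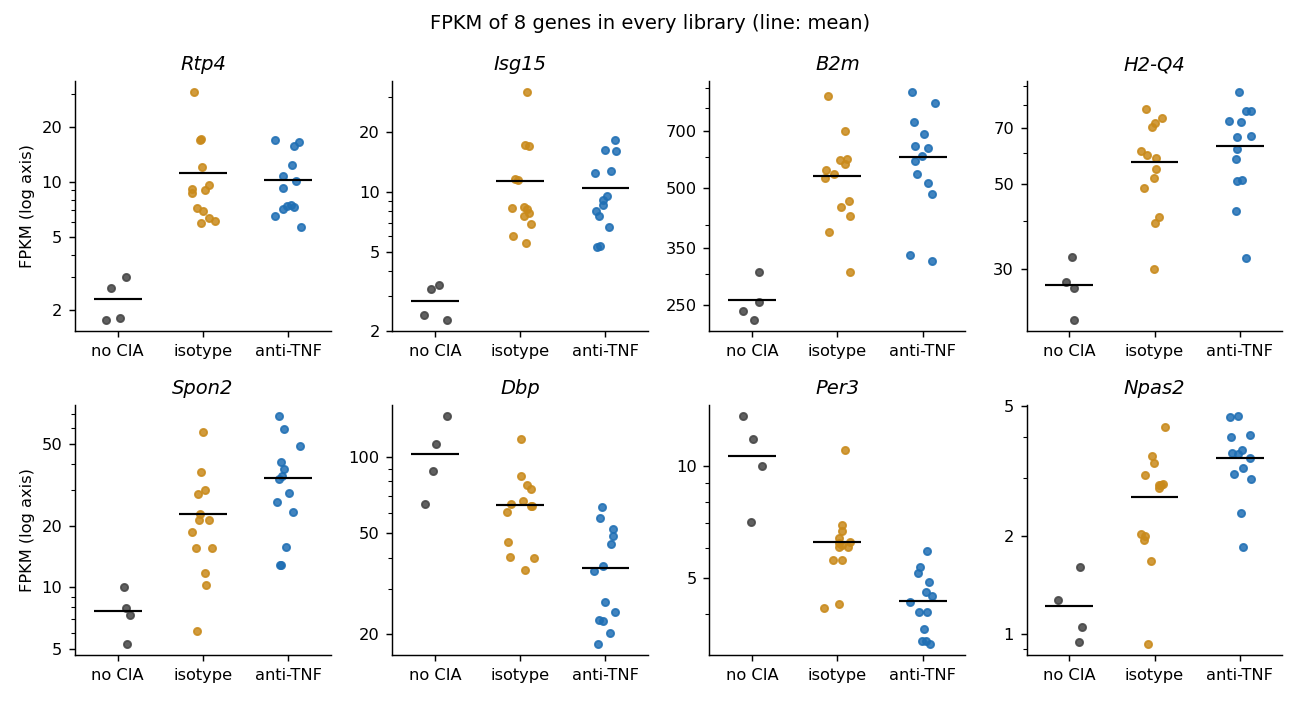
FPKM (log axis) of 8 genes in every no CIA, isotype and anti-TNF library, 1 point per mouse, with a line at the group mean. Rtp4, Isg15, B2m and Spon2 of all 13 anti-TNF mice are above the 4 no CIA mice, Npas2 likewise, 12 of 13 are above them for H2-Q4, and Dbp and Per3 are below them.

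The antibody's target and its relatives formed a list of 9 ligands and receptors, of which 8 were tested and none was called. The antibody binds the TNF protein, so the mRNA does not check the labels. Tnf was at 0.907, 0.981, 1.02 and 0.747 FPKM without CIA and at 0.673, 1.78 and 6.12 under anti-TNF, with 11 of 13 anti-TNF mice above the no CIA range and 1 below (log2 0.63 ± 0.25, limma adjusted p = 0.186). Its main receptor Tnfrsf1a was at 75.7, 69.5, 62.5 and 67.4 against 50.9, 94.5 and 112 (log2 0.34 ± 0.163, adjusted p = 0.245). Tnfrsf1b, the receptor of immune cells, was at 2.20, 2.62, 2.70 and 2.60 against 2.36, 6.57 and 18.9 (log2 1.00 ± 0.415, adjusted p = 0.197). These differences did not pass the test, and the anti-TNF mice spread around them widely. Lymphotoxin beta (Ltb) had 1.08 ± 0.553 (adjusted p = 0.272) and its receptor Ltbr 0.47 ± 0.211 (adjusted p = 0.217). Il6 was listed at 0.0227, 0.0235, 0 and 0.141 FPKM in the no CIA mice and at 0.0664, 0.611 and 7.42 in the anti-TNF mice (log2 0.92 ± 0.600, adjusted p = 0.378). The IL-6 receptor Il6ra had 0.01 ± 0.128 (adjusted p = 0.956), and the shared signalling chain Il6st had 0.55 ± 0.197 (adjusted p = 0.160). Of 22 tested genes induced by TNF through NF-kB none was called either, at a list median of 0.90 with 20 positive differences. Icam1, the leukocyte adhesion molecule with the smallest p of that list, was at 6.43 to 9.32 FPKM without CIA and 7.49 to 29.8 under anti-TNF (log2 0.95 ± 0.288, adjusted p = 0.124).

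Genes of inflammatory cells and tissue remodelling included differences above that of any called gene, and none of the lists in this paragraph and the next had a called member. Of 38 lists 6 had a called member and 32 had none. Mature neutrophil genes had a median of 1.10 over 17 tested members, from -0.41 to 4.01. S100a9, a subunit of neutrophil calprotectin, was at 8.81, 15.3, 12 and 24.1 FPKM without CIA and at 15.8, 304 and 1621 under anti-TNF. The difference was 4.01 ± 1.11 and did not pass (limma adjusted p = 0.0798), with 11 of 13 anti-TNF mice above the no CIA range. Lcn2, an iron-binding protein of neutrophil granules that leads the list of marrow precursors (median 1.29, 11 tested), had 2.30 ± 0.714 (adjusted p = 0.124). Ly6c2, a marker of inflammatory monocytes, had 2.19 ± 0.599 (adjusted p = 0.0741) in a macrophage list with a median of 1.05. The chemokine Ccl8 had 1.77 ± 0.464 (adjusted p = 0.0558). For T cells 8 of 14 listed genes were tested, at a median of 0.62, and Cd3d of the T cell receptor complex had 0.62 ± 0.204 (adjusted p = 0.141). Cd3d was at 0.216, 0.21, 0.522 and 0.22 FPKM without CIA. It was tested only for its anti-TNF level, since a mean of 1 FPKM in either group was enough. Members that entered in this way push the median and the positive count of their list upward. Oas1a, Il6, Mmp12 and Adamts4, all under 1 FPKM without CIA, are further members of this kind.

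Osteoblast, metalloproteinase and collagen genes had the 3 highest medians of the 38 lists. Fibrillar collagen and fibrosis genes were at 1.42 (18 tested), osteoblast and osteocyte genes at 1.52 (14), metalloproteinases and their inhibitors at 1.45 (13), osteoclast genes at 0.96 (12) and cartilage genes at 0.85 (17). Mmp12, the macrophage elastase, was at 0.512, 0.593, 0.457 and 0.261 FPKM without CIA and at 0.531, 3.44 and 22.5 under anti-TNF (log2 1.54 ± 0.424, limma adjusted p = 0.0791). The crosslinking enzyme Loxl2 had 1.16 ± 0.358 (adjusted p = 0.124), the parathyroid hormone receptor Pth1r 1.54 ± 0.581 (adjusted p = 0.172), the aggrecanase Adamts4 1.37 ± 0.518 (adjusted p = 0.172) and the osteoclast integrin Itgb3 0.98 ± 0.372 (adjusted p = 0.171). For Adamts4 and Pth1r 11 of 13 anti-TNF mice were above the no CIA range. Thy1, a marker of sublining fibroblasts, was at 40.7 to 67.6 FPKM without CIA and 46.4 to 147 under anti-TNF (log2 0.93 ± 0.248, adjusted p = 0.0644).

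Some lists pointed the other way, again without a call. Skeletal muscle genes had a median of -1.01, with 19 of 19 tested members negative. Their mean level was 8.30 to 10.1 on the log2(FPKM + 1) scale in the no CIA libraries and 6.37 to 10.5 in the anti-TNF libraries, which overlap. Medians were -0.35 for adipocyte and for epidermis genes, -0.34 for Schwann cell genes and -0.32 for oxidative phosphorylation. The satiety hormone Lep of fat cells had -0.53 ± 0.211 (limma adjusted p = 0.183) and the nerve growth factor receptor Ngfr of Schwann cells -0.34 ± 0.109 (adjusted p = 0.129). Cell cycle genes (median 0.08) and glucocorticoid-responsive genes (0.02) lay near the median of all features. The part of these tissue levels in the calls was not tested. With the muscle and epidermis levels of each library added to the fit, a setting that moves with the groups, 22 genes were called higher and 9 lower, of which 29 were among the 83. The type I interferon list then had a median of 0.71 with 7 called members, MHC class I 0.62 with 3, mature neutrophils 0.44 with 0 and the clock list -0.34.

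**Figure D3:**
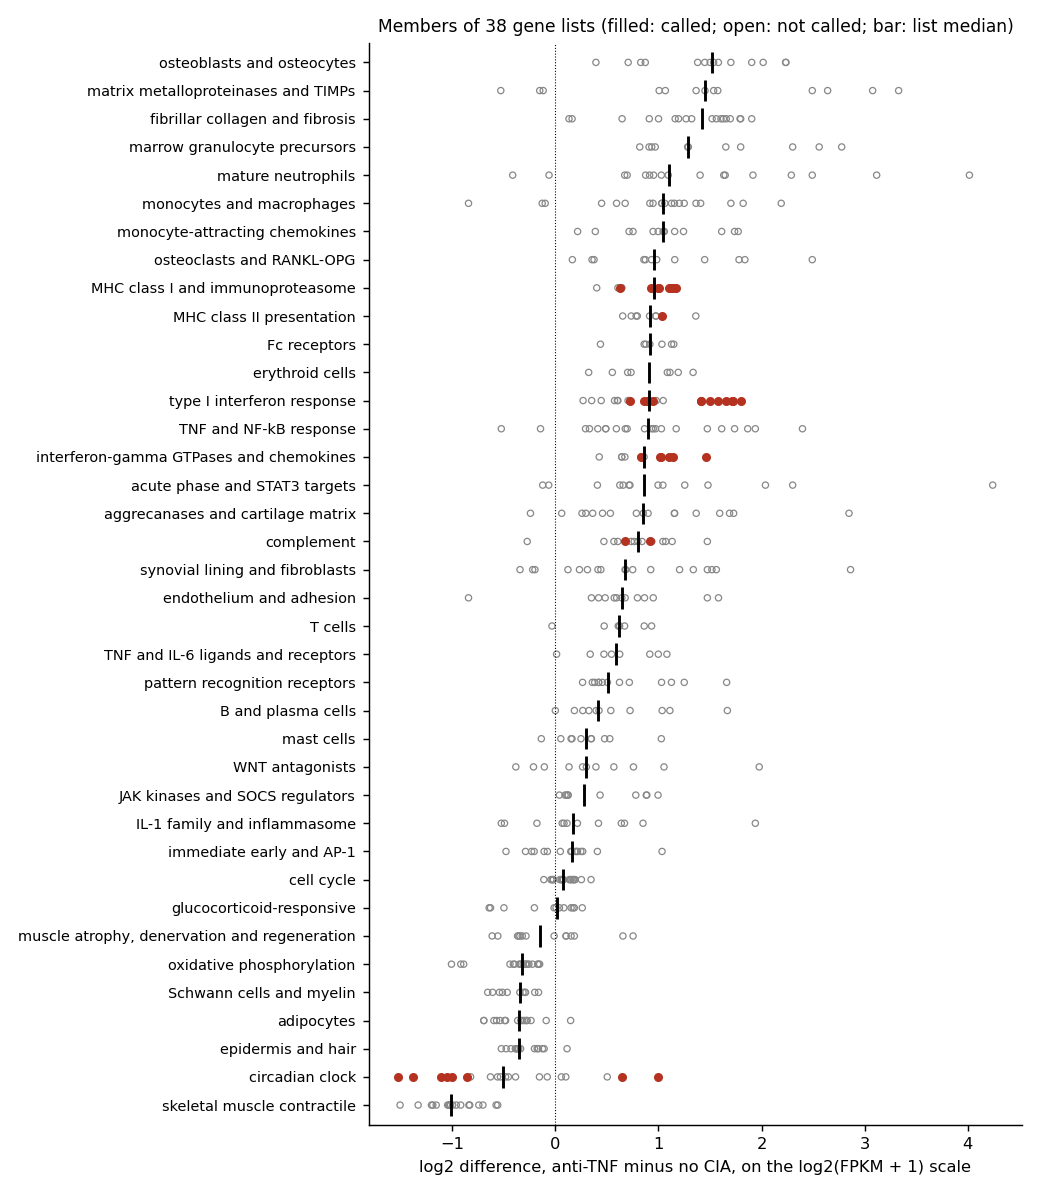
Log2 difference between anti-TNF and no CIA paws (x axis, log2(FPKM + 1) scale) of every tested member of 38 gene lists (rows). Filled points are called genes, open points are not called and bars are list medians, from 1.52 for osteoblasts to -1.01 for skeletal muscle. Called points appear in 6 lists.

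The spread among anti-TNF mice in the mean level of a list differed between lists. The SD over the 13 mice, on the log2(FPKM + 1) scale, was 0.978 for mature neutrophils and 0.977 for metalloproteinases, 0.419 for the IL-1 family, 0.363 for type I interferon, 0.319 for JAK kinases and SOCS regulators, 0.105 for clock genes and 0.103 for glucocorticoid-responsive genes. Called clock genes went both ways, so spread can cancel in the mean of that list. For single clock genes the median SD over the anti-TNF mice was 0.251, against 0.233 over all features. S100a8, the partner of S100a9, was at 7.69 to 21.4 FPKM without CIA. In anti-TNF replicates 7 and 13 it was at 18.7 and 11.7, within that range, and in the others at 32.8 to 967. Col1a1 was at 153 and 164 in replicates 7 and 13, below all no CIA mice (179 to 290), and Mmp3, stromelysin of synovial fibroblasts, was at 7.81 and 8.30, within their range of 6.66 to 9.71. In the other 11 mice Mmp3 was at 16.3 to 746. Rtp4, B2m and Dbp were outside the no CIA range in all 13 anti-TNF mice, and so by the choice of genes in these 2 mice as well. Rtp4 was at 7.08 and 7.27 FPKM in them, against 3.00 in the highest no CIA mouse. B2m was at 324 and 336 against 304, and Dbp at 22.7 and 48.6 against a lowest no CIA value of 64.9. Other class I genes of theirs were within it, with H2-D1 at 340 and 351 (no CIA 311 to 359) and H2-T23 at 43.7 and 43.4 (38.0 to 47.4). Without replicate 7 the fit called 208 genes higher and 20 lower, and without replicate 13 it called 155 and 17.

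**Figure D4:**
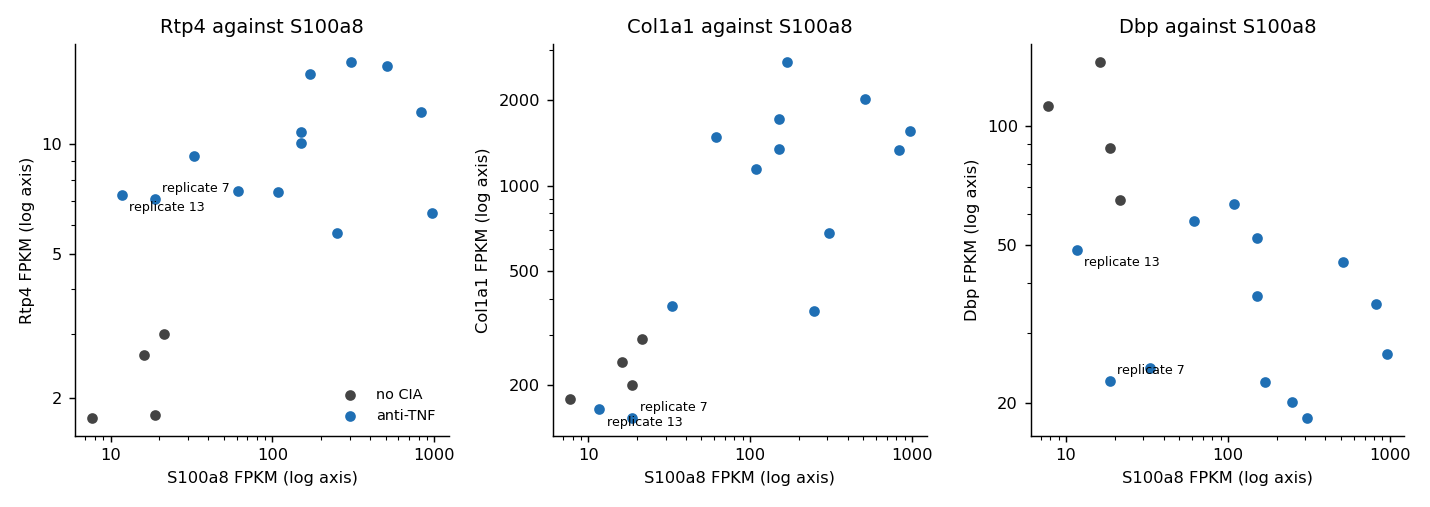
FPKM of Rtp4, Col1a1 and Dbp (y axes, log) against S100a8 (x axes, log), 1 point per anti-TNF or no CIA mouse. Anti-TNF replicates 7 and 13 lie with the no CIA mice for S100a8 and Col1a1 but apart from them for Rtp4 and Dbp, as all 13 anti-TNF mice do.

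Within the 13 anti-TNF mice 7 relations between genes were computed on the log2(FPKM + 1) scale, chosen after the data were seen. B2m and S100a8 had a Pearson r of 0.74 (permutation p = 0.0037, adjusted 0.0129) and a Spearman rho of 0.60 (p = 0.0318, adjusted 0.111, permutation), and r was 0.39 without the 2 mice farthest from the median of S100a8. S100a8 and Acta1 had r of -0.78 (permutation p = 0.00194, adjusted 0.0129), rho of -0.64 (permutation p = 0.0206, adjusted 0.111) and r of -0.58 without 2 mice. Rtp4 and S100a8 had a relation that did not pass the test (r = 0.37, permutation p = 0.208, rho = 0.32, permutation p = 0.279), as did Dbp and S100a8 (r = -0.15, permutation p = 0.625, rho = -0.31, permutation p = 0.305). Leaving out the 2 mice farthest in S100a8 also narrows its range, which can lower r by itself. The lower r of B2m and S100a8 without them therefore cannot show how far the relation rests on these mice. S100a8 thus went with B2m and against Acta1 across mice by Pearson's r but not by Spearman's rho after adjustment, and the part of cell makeup in B2m was not tested. The other 3 relations had adjusted permutation p of 0.364, 0.656 and 0.498 for r, for Rtp4 with Acta1, Rtp4 with Dbp and Dbp with the mouse number. Dbp and the mouse number had r = 0.29 (permutation p = 0.356) and rho = 0.51 (permutation p = 0.0818), and r was 0.70 without the 2 mice farthest from the median number.

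Isotype mice were set beside the anti-TNF mice because both were immunised. Comparisons of either with no CIA share the same 4 control libraries, and isotype against no CIA called 23 features (0.158%). Against no CIA, Rtp4 was higher by 1.71 in anti-TNF and 1.75 in isotype paws, Oas1a by 1.80 and 1.74, B2m by 1.17 and 1.02 and Gbp3 by 1.10 and 1.18. Clock differences were of more unequal size, with Per3 at -1.10 and -0.68, Dbp at -1.52 and -0.68, Tef at -1.0 and -0.62, Ciart at -1.38 and -0.87 and Per2 at -1.05 and -0.97. In the anti-IL-6 group the same 5 genes were at -1.45, -2.57, -1.48, -1.56 and -0.95, and in the combination group at -0.82, -0.84, -0.64, -0.90 and -0.87. The direct test of anti-TNF against isotype called 0 of 14543 features (0.00%) in limma, with 792 at an unadjusted p under 0.05 (5.45%). Among the 83 genes called against no CIA the smallest adjusted p of that test was 0.846, and 12 had an unadjusted p under 0.05. For Per3 the anti-TNF minus isotype difference was -0.43 ± 0.117 (unadjusted p = 0.00061), for Dbp -0.85 ± 0.248 (unadjusted p = 0.0012) and for Spon2 0.59 ± 0.267 (unadjusted p = 0.030), none of which held after adjustment over all features by limma.

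Without no CIA replicate 3 the fit called 51 higher and 13 lower, without anti-TNF replicate 8 46 and 11, and without replicate 6, the mouse with the number outside the sequence, 69 and 13. The anti-TNF replicates that raised the counts most when left out were 7 and 13, the mice with S100a8 and Mmp3 within the no CIA range.

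**Figure D5:**
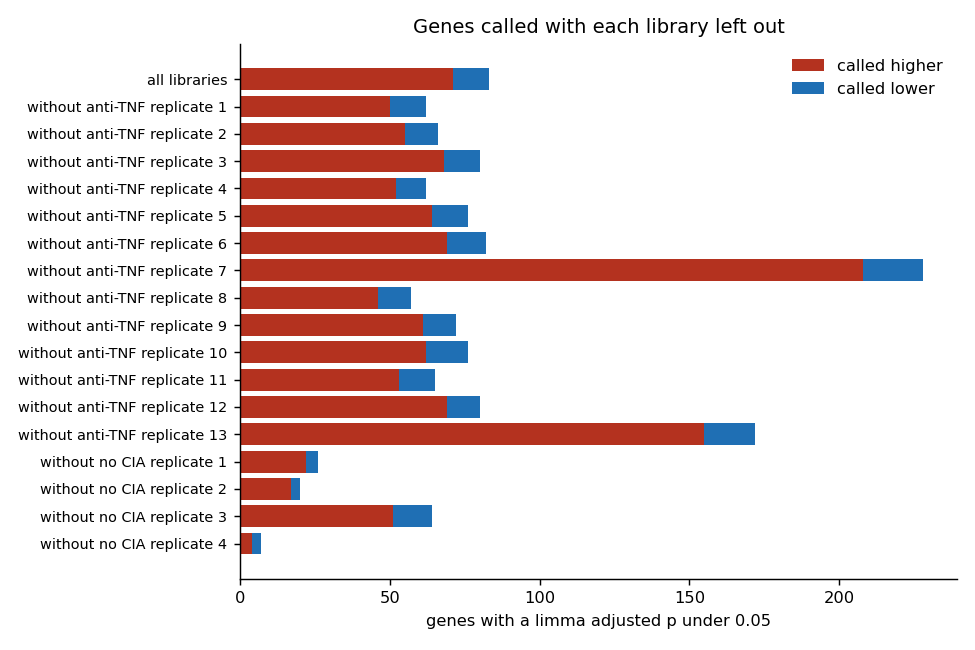
Number of genes called higher (red) and lower (blue) with all libraries and with each of the 17 libraries left out (rows). Bars start at 0. The count is 83 with all libraries, 7 without no CIA replicate 4 and 228 without anti-TNF replicate 7.

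Index numbers of the libraries form 2 runs without a gap, 39 to 54 and 57 to 96. Within the first run the 4 no CIA libraries can be set beside anti-TNF replicates 6 and 8. The group of replicate 6 is in some doubt, as stated above, so only replicate 8 is free of that doubt. These 2 mice had Rtp4 at 10.8 and 16.5 FPKM (no CIA 1.76 to 3.00), B2m at 602 and 827 (229 to 304), Per3 at 4.30 and 4.46 (7.08 to 13.6), Dbp at 37.2 and 45.3 (64.9 to 145) and S100a9 at 321 and 893 (8.81 to 24.1). Both were thus on the same side of the no CIA mice as the anti-TNF group for these genes. For Rtp4, B2m, Per3 and Dbp all 13 anti-TNF mice lay on that side, so replicates 6 and 8 had to. Their place there is therefore no check on the index numbers. With only these 2 anti-TNF libraries 0 genes passed in limma, while 2749 had an unadjusted p under 0.05. List medians were then 1.24 for type I interferon, 1.27 for MHC class I, -0.51 for the clock and 1.57 for mature neutrophils. With the run as a term in the fit of all 56 libraries 61 genes were called higher and 7 lower, and 58 of the 83 were among them. Both fits were added after the data were seen.

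A finer division into 5 index stretches was made for the fit at the gap and at some points where mouse numbers start again. Mouse numbers also fall back between indices 57 and 58 and between 66 and 67, where no split was made. This division puts all no CIA libraries in the first stretch (39 to 44) and no anti-TNF library with them. With this division as a term 2189 genes were called as higher and 858 as lower, with 75 of the 83 among these. The type I interferon list then had a median of 1.69, the clock list -0.86 and the neutrophil list 3.51 with 14 called members. That fit ties the first stretch to the others through isotype replicates 4 and 7 alone, whose Mmp3 levels of 913 and 589 FPKM were the 2 highest of the 13 isotype mice.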

How the data were processed

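RNA from front paws was sequenced as stranded paired-end libraries, per the labels' protocols, and DESeq2 is named, with no version or role, per the submitters' processing notes. The deposited values are taken as FPKM because they are not whole, have unequal totals and step with transcript length; no header names the unit. Which aligner, build, annotation and strand setting made them is not given in the sources used here, and all 56 columns were used. The table holds 53431 features, and 51027 of 52244 Ensembl identifiers matched GENCODE M21 with version. Depth was estimated from the steps of low FPKM values in single-exon genes of at least 400 bases, where 75.3% to 80.6% of values were whole multiples within a tolerance of 0.05, so reads could not be rebuilt and no count test was run. No 2 libraries were identical.

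Features whose FPKM averaged 1 or more in either group were tested with limma 3.58.1 (R 4.3.3; trended, robust prior) on log2(FPKM + 1), with all 56 libraries, 1 mean per group and two-sided p adjusted over 14543 features. P-values measure the spread within groups, pooled over all 56 libraries, which carry separate mouse numbers in their titles. The 4 no CIA mice add little to that spread. Over the genes called lower the median SD was 0.313 without CIA and 0.176 under anti-TNF. Over those called higher it was 0.185 and 0.402. Where the no CIA mice vary more, as in the genes called lower, the SE can be too small. On simulated data 60.0%, 90.0% and 94.5% of 200 genes changed by a log2 of 0.5, 1 and 2 were recovered among 14543. False calls numbered 4, 11 and 10. The simulated noise was independent between genes, with the same SD in every group. Only genes with a mean log2(FPKM + 1) above 2 were changed. The shares recovered therefore do not carry over to genes that vary together or spread widely among the anti-TNF mice. The members and the 38 gene lists were chosen with earlier results of these data known. The rule for named genes took all ligands and receptors of TNF and IL-6, the 10 highest and 10 lowest log2 differences among called genes whose FPKM averaged 2 or more in the higher group (leaving out provisional and immunoglobulin or T cell receptor segment symbols), the 3 called members of each list with the smallest p, all called clock genes and the member with the smallest p of each list without calls, 68 genes in all. Other genes were named after their values were seen. One list member is not reported here by itself. Alternatives were other pseudocounts, filters, scalings, weights and priors, the 17 libraries alone, covariates for index numbers or tissue, and leaving out each library. Python 3.11.15 with scipy 1.17.1 ran 100000 resamples per relation.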

Additional observations from a re-analysis of the deposited data

Results flagged for a closer look

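In 5 of the 68 genes named by rule 1 of the 4 no CIA mice lay far from the other 3 by Dixon's criterion, which flags about 1 in 20 groups by chance. No CIA replicate 3 was the highest for Cd3d, of the T cell receptor complex, at 0.522 FPKM with the other mice at or below 0.220, and for Fos, an immediate early gene, at 15.7 with the others at or below 5.02. It was also the highest for Irgm2, at 2.26 with the others at or below 1.51, and the lowest for Il6ra, at 4.57 with the others at or above 5.35. No CIA replicate 4 was the highest for Il6, at 0.141 FPKM with the others at or below 0.0235.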

How the results depend on the processing

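The 71 genes higher and 12 lower in anti-TNF paws became 20 higher with pseudocount 10, 43 lower with no filter (52 higher), 7 lower at a mean FPKM of at least 5, 271 higher and 39 lower with a weight per group, 2189 and 858 with the index stretch in the fit, 7 lower (61 higher) with the unbroken index run, 0 and 0 with only the 2 anti-TNF libraries of the no CIA index run (2749 at an unadjusted p under 0.05), and 22 higher with muscle and epidermis levels. Leaving out 1 library gave 4 to 208 higher and 3 to 20 lower, lowest without no CIA replicate 4 and highest without anti-TNF replicate 7. The share of calls that were higher, 85.5% at first, was 62.5%, 54.7%, 71.8% and 71% with pseudocount 10, no filter, the index stretch and the tissue levels. Il6ra turned from 0.01 to -0.03 with median-of-ratios scaling to -0.08 with tissue levels, to -0.01 with the unbroken run and to -0.17 with the 2 libraries, and it ranged from -0.05 to 0.05 when 1 library was left out, negative without anti-TNF replicates 1 (-0.02) and 4 and no CIA replicate 3 (-0.04). None of the other genes of the naming rule, and none of the 4 list medians recomputed (type I interferon, MHC class I, clock, mature neutrophils), changed sign under these settings. Apart from the filters, which change the genes tested, and the libraries left out, the cause of these shifts was not tested. No paired analysis was possible because replicate numbers follow the order of accession and pair no mice. The MHC class I median and the unbroken index runs were added after the data were seen. The 4 no CIA mice limit the precision, and genes under 1 FPKM in both groups were not tested.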
